A study of Mus musculus with 18 samples.

Results

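The set described here holds 10 genes of striated muscle, measured in livers of newborn mice: the skeletal alpha-actin gene Acta1, the myosin light chain genes Myl1 and Mylpf, the troponin genes Tnnc2, Tnnt3 and Tnni2, the myosin heavy chain genes Myh3 and Myh8, the creatine kinase gene Ckm, and Pln, which encodes phospholamban. The genes were chosen by measured values, the log2 differences of single libraries of this series from the control mean, in which several of them had read high. Those values are therefore given as a description, with no test. A gene was followed through its RefSeq accession to the probe with the highest mean Cy5 signal. A probe was matched for 9 of the 10 genes, out of 34335 genes and unnamed probes on the array, and 8 of the 9 passed the dim-signal filter of the tests, which asks that Cy5 be well above background in 4 or more of the 18 libraries. Myh3 was matched to no probe and was not analysed here. Ckm had a probe but was well above background on 3 arrays, so it entered no test.

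The study gave pregnant C57BL/6BomTac mice the carbon black Printex 90, a soot-like nanoparticle, or its vehicle, Milli Q water, into the windpipe on gestation days 7, 10, 15 and 18. Exposed dams received 67 µg each time, 268 µg in all. Livers of their pups were taken on postnatal day 2, and each 2-colour array carried 1 pup's liver RNA in Cy5 against a commercial universal mouse reference RNA in Cy3. The groups were 5 control females, 4 high-dose females, 5 control males and 4 high-dose males, named here by sex and the pup number in the label (high male 7). All dams of both groups were thus instilled, and all pups were of 1 strain and 1 age. The labels give no litter, so p-values measure the spread between these pups and cannot account for sibs.

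Skeletal muscle shortens when myosin heads of the thick filament pull on actin of the thin filament, and the troponin complex on the thin filament lets this happen when calcium is released from the sarcoplasmic reticulum. The heavy chains exist as a family of isoforms that replace each other during development: the embryonic chain (Myh3) and the neonatal chain (Myh8) come first, and the adult fast chains (Myh1, Myh2, Myh4) and the slow chain (Myh7) take over. Hepatocytes have no sarcomeres, and liver is normally a tissue in which these transcripts are scarce. Muscle genes are known to be switched on through CANNTG sites bound by MyoD-family factors (E-boxes), the CArG box bound by serum response factor, and sites bound by MEF2 factors.

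The 250 bases upstream of the start are printed for 4 genes that show the range of values below. Acta1 and Myh8 stood far above the controls in 2 libraries, and Myh8 had the largest difference in Cy5 alone, though not by ratio. Ckm was not well above background in any control, and Pln did not follow the others. The sequences are from RefSeq (GRCm38.p6), 5′ to 3′ on the gene's strand, and capitals mark matches to the E-box CAGCTG, the CArG box or the MEF2 site. Acta1 is at chr8:123894776-123895025 on the minus strand, Ckm at chr7:19410844-19411093 on the plus strand, Myh8 at chr11:67276874-67277123 on the plus strand and Pln at chr10:53337436-53337685 on the plus strand.
Acta1: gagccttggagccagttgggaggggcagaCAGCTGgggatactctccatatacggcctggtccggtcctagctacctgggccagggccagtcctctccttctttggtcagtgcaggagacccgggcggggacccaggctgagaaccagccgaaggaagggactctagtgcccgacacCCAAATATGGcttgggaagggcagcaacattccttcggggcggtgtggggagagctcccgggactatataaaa
Ckm: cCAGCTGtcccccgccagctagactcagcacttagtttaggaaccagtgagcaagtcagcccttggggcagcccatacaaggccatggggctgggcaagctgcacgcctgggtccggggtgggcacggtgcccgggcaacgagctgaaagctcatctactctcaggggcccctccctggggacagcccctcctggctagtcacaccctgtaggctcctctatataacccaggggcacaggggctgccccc
Myh8: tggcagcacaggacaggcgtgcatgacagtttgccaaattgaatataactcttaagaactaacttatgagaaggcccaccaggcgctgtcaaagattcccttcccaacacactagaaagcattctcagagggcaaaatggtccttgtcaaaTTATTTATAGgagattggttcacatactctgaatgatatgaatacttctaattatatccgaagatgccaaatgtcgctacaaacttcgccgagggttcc
Pln: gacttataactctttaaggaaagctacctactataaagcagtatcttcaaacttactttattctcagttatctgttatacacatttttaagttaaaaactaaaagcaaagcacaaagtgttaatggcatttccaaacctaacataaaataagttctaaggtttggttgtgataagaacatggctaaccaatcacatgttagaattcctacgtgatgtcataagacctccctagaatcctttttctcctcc

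An upstream sequence was matched for 8 of the 10 genes (Tnnt3 and Tnni2 are named only). Those of Myl1 (chr1:66945057-66945306) and Mylpf (chr7:127211358-127211607) lie inside the span of their gene, before an internal start. That of Myh3 runs past the first base of the gene's span. Both strands were searched. CAGCTG, a form of CANNTG, occurred in 4 of the 8 sequences (Acta1, Myl1, Ckm and Mylpf) and in 13% of 32851 upstream sequences of the same length. CANNTG occurred in 8 of 8 and in 66.2% of all. A CArG box stood only in Acta1 among the 8, 73 to 64 bases before the start, and in 1.47% of all sequences. A MEF2 site stood only in Myh8 among the 8, 99 to 90 bases before the start, and in 2.92% of all; it overlaps a TATAAA on the opposite strand. TATAAA occurred in 5 of the 8 and in 12.4% of all. These are matches of letters, not measured binding sites.

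The arrays were alike in brightness: their median Cy5 signal lay between 127 and 148.5 intensity units over a background of 79 to 82.5, and 54.8% to 67.9% of probes were well above background. The liver label was borne out by hepatocyte genes in both libraries that carried the muscle signal: albumin (Alb) differed from the control mean by -0.04 in high male 7 and -0.09 in high female 8, inside the control range of -0.56 to 1.01. Control and exposed pups shared slides, but controls always lay at array positions 1 and 2 and exposed pups at positions 3 and 4, so position and exposure cannot be told apart. The library labelled control male 6 read like the females, with log2 Cy5/Cy3 of 1.98 for Xist and -2.11 for Ddx3y. It was kept under its label, and no result on the 8 tested genes passed the threshold with or without it.

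The muscle genes stood far above the controls in 1 male and 1 female of the high-dose groups. In high male 7, 8 of the 9 measured genes lay more than 1 log2 unit (2-fold) above the mean of the 10 controls, where 0.323% of all genes and unnamed probes did. In high female 8, 6 of 9 did, against 1.03% of all. In high female 13, 1 of 9 did (Myl1), against 3.12% of all. Pln alone did so in high male 5 (0.0146% of all) and in high male 9 (0.0408% of all), and 0 of 9 did in high male 14 (0.0262%), high female 4 (0.0437%) and high female 6 (1.24%). These counts use the same contrast that chose the genes, so nothing is read from them. In bulk RNA, more cells of a type and more RNA per cell cannot be told apart.

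Actin and the troponins of the thin filament are described first. Acta1, the main actin of adult skeletal muscle fibres (chr8:123891758-123894775), had a Cy5 signal (median intensity of the spot, in scanner units) of 13338 in high male 7 and 1144 in high female 8. The other exposed pups read 132.5 (high male 5), 148 (high male 9), 152 (high male 14), 126 (high female 4), 154.5 (high female 6) and 200.5 (high female 13), and the controls 128 to 180. On the normalized log2 Cy5/Cy3 scale, this put high male 7 at 5.54 and high female 8 at 2.88 above the control mean, with the controls from -0.42 to 0.39 and the other 6 exposed pups from -0.31 to 0.32. Those 6 pups thus overlapped the controls, and the pair of raised libraries lay outside the range of all others.

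Tnnc2 encodes the calcium-binding subunit of fast-fibre troponin. Its signal was 20314 in high male 7 and reached 1780 in high female 8. The other exposed pups read 153 (high male 5), 164.5 (high male 9), 173.5 (high male 14), 148 (high female 4), 164.5 (high female 6) and 165 (high female 13). The controls lay between 144 and 213. The log2 differences from the control mean were 4.80 in high male 7 and 3.14 in high female 8, against -0.27 to 0.47 in controls and -0.37 to -0.04 in the other exposed pups. The same pair of libraries was high as for Acta1, and every other exposed pup was below the control mean.

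Tnni2, the inhibitory subunit of fast troponin, was well above background on all 18 arrays, and controls read 520.5 to 661. High male 7 read 16114 and high female 8 read 2204.5, while the other exposed pups lay between 405.5 and 650. The log2 differences were 3.62 and 1.74, against -0.18 to 0.31 in controls. High male 9 was marginally above the control range at 0.36, and high female 6 (-0.43), high female 13 (-0.36) and high female 4 (-0.21) were below it.

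Tnnt3, the fast subunit that anchors troponin to tropomyosin, was well above background in 4 of 10 controls (95 to 120.5). It read 2991 in high male 7 and 329.5 in high female 8, and its log2 differences were 4.49 and 1.58, against -0.24 to 0.27 in controls and -0.15 to 0.18 in the other exposed pups. A second Tnnt3 probe gave 3.63 in high male 7 and 1.27 in high female 8. Both probes thus put this pair of libraries above the control mean. The second probe was not compared with the other libraries one by one.

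The thick filament genes followed. Myl1, the essential light chain of fast myosin (chr1:66924295-66947932), had the largest difference of the 9 genes in high male 7. Its Cy5 signal was 10062 in high male 7, 1157.5 in high female 8 and 262 in high female 13. Signals of the other 5 exposed pups were 95 to 109.5. Controls lay between 95.5 and 141.5, with 4 of 10 well above background. High male 7 differed by 6.31, high female 8 by 3.42 and high female 13 by 1.25 on the log2 scale, and controls spanned -0.24 to 0.42. High male 5 differed by 0.15, high male 9 by -0.09, high female 4 by -0.14 and high female 6 by -0.27, all near the controls. Myl1 was the one gene of the set to put high female 13 more than 1 log2 unit above the control mean.

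Mylpf, the regulatory light chain of fast myosin, was well above background on all 18 arrays, with controls at 242.5 to 429. It read 3129 in high male 7 and 591 in high female 8. The log2 difference was 2.80 in high male 7, far outside the control range of -0.44 to 0.23, but only 0.45 in high female 8, a margin over the highest control no wider than the spread among controls. High female 13 was the lowest of the 18 libraries for Mylpf, at -0.97, and high female 4 (-0.49) was also under the lowest control, which high male 9 (-0.44) matched.

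Myh8, the neonatal heavy chain (chr11:67277124-67308634), had the brightest Cy5 spot of the set in high male 7. It read 28496 there and 2026 in high female 8, while the other 6 exposed pups read 93 to 111. Controls lay between 96 and 145, with 4 of 10 well above background. The log2 differences were 4.00 and 3.40, against -0.17 to 0.54 in controls. The other exposed pups differed by 0.06 (high male 5), -0.08 (high male 9), -0.06 (high male 14), -0.25 (high female 4), -0.07 (high female 6) and 0.10 (high female 13), none of them above the control range. Control female 4, at 0.54, stood apart from the other controls. A second Myh8 probe gave 1.19 in high male 7 and 0.26 in high female 8, but it was well above background on 1 array only, too dim to be set against the first.

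Ckm encodes the creatine kinase that buffers ATP at the sarcomere. Its probe was not well above background in any of the 10 controls (84 to 94) and read 700.5 in high male 7, 126 in high female 8 and 112 in high female 13. The other 5 exposed pups read 85 to 92. As the controls give only a bound, Ckm was at least 8.89-fold higher in high male 7 and at least 1.34-fold higher in high female 8 than in controls. The bound is on the normalized Cy5 channel alone. On each control array it is set against the lowest signal that is well above background, or the gene's own signal where that is higher. All bounds given as "at least" are of this kind and can exceed the fold of the Cy5/Cy3 ratio, since Cy3 is also brighter at some of these spots. The measured log2 ratio differences were 2.97 and 0.41. Only high male 7 was far from the rest.

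Pln did not share this pattern. Phospholamban restrains the calcium pump of the sarcoplasmic reticulum and is known from heart, slow-twitch and smooth muscle. Its signals were close to background throughout, at 92 in high male 7, 98 in high female 8 and 88 to 135.5 in controls. The 3 brightest libraries were the other high-dose males, with 176 (high male 9), 167 (high male 5) and 146 (high male 14). Their log2 differences from the control mean were 1.30, 1.05 and 0.66, against 0.08 in high male 7, -0.21 in high female 8 and -0.30 to 0.57 in controls. The high males without the muscle signal were thus above every control for Pln, and high male 7 was among the controls.

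**Figure D1:**
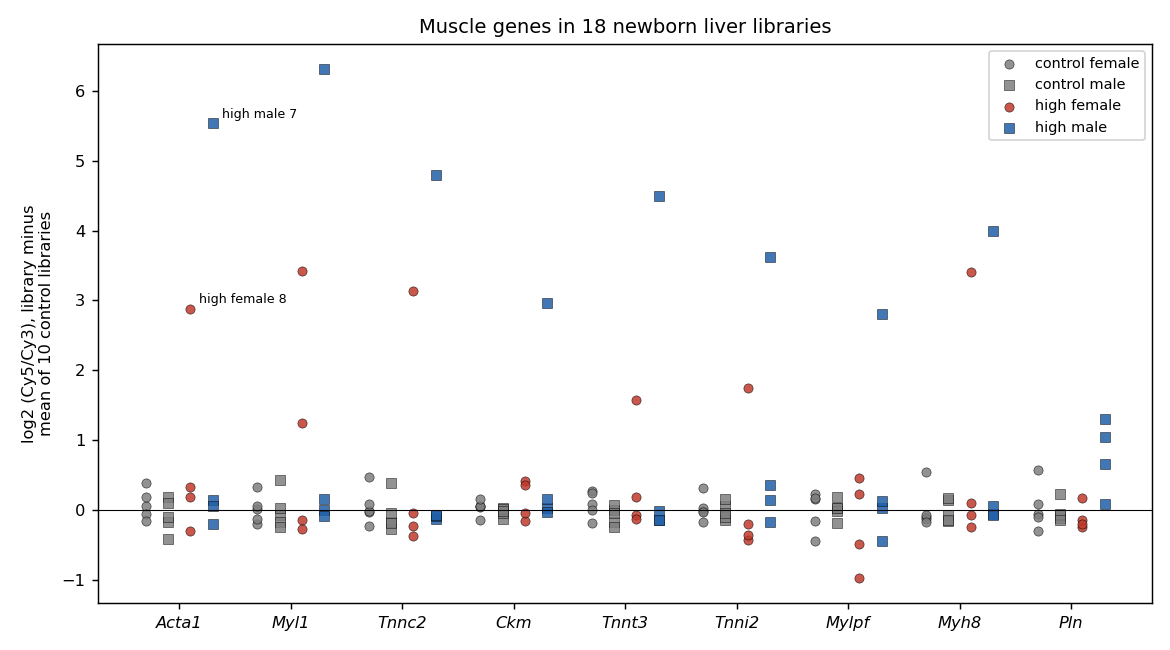
The log2 Cy5/Cy3 of each library minus the mean of the 10 control libraries, on the y axis, for the 9 measured genes on the x axis; circles are females, squares are males, grey is control, red high-dose females and blue high-dose males. High male 7 is the highest point for every gene except Pln, from 2.80 (Mylpf) to 6.31 (Myl1), and high female 8 is the second highest for each of those 8 genes, while for Pln 3 other high-dose males are highest.

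Group means carried these single libraries. In high males, the log2 Cy5/Cy3 of Acta1 was -0.51 ± 2.77 (SD, n = 4) against -1.98 ± 0.24 (n = 5) in control males, and that of Myl1 was -0.65 ± 3.15 against -2.25 ± 0.26. In high females, Acta1 was -1.12 ± 1.43 (n = 4) against -1.81 ± 0.22 (n = 5) in control females. The SD of the exposed group was thus many times that of the controls for these genes, and the groups overlapped.

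The fit of group differences (limma on all 21081 transcripts, Benjamini-Hochberg adjusted p under 0.05) uses, for exposure, the values that chose the genes, so its counts, medians and p-values for exposure are a description and support nothing. In high against control males, 0 of 8 passed, where 0% of all transcripts did; at an unadjusted p under 0.05, 1 of 8 did (Pln) against 1.68% of all. The median difference of the 8 genes was 1.07 against 0.014 over all transcripts. In high against control females, 0 of 8 passed against 1.46% of all, and 0 of 8 had an unadjusted p under 0.05 against 22.8% of all. The median of the 8 was 0.44, against 0.0028 over all. The groups did not overlap for 0 of 8 genes in males (1.18% of all) and 0 of 8 in females (4.16% of all).

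The comparison between control males and control females did not enter the choice of the genes and can be tested. In limma, 0 of 8 passed (0% of all transcripts), and 0 of 8 had an unadjusted p under 0.05 (1.48% of all). The median difference, males minus females, was -0.06 against -0.0064 over all transcripts. Differences ran from -0.17 ± 0.83 (SE) for Acta1 to 0.02 ± 0.43 for Mylpf. These standard errors are wide because the fit pools the spread of all 4 groups, the high-dose ones included. By themselves they leave room for sex differences of more than 1 log2 unit in Acta1. The controls alone spread less, with Acta1 at -1.98 ± 0.24 (SD, n = 5) in control males and -1.81 ± 0.22 (n = 5) in control females. For Tnnt3 the difference was -0.16 ± 0.64 (SE) in this fit and -0.16 ± 0.09 with only the 2 control groups fitted. The control males also include the library labelled control male 6, which read like the females. With it no transcript passed, and without it 10 of 21081 did, among them 0 of the 8 genes. Under these labels the fit of all 4 groups therefore cannot show that the control sexes are alike.

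Without high male 7 and high female 8, an alternative added after the data were seen, the group differences of the genes other than Pln were 0.40 or less in size. In males, the differences (high minus control, n = 3 against 5) lay between -0.11 (Mylpf) and 0.13 (Tnni2) for the 8 measured genes other than Pln. In females they lay between -0.40 (Mylpf) and 0.27 (Myl1). The smallest adjusted p in limma was then 0.0756, for Tnni2 in females at -0.35 ± 0.12 (SE). In females 0 of the 8 tested genes passed in that fit, where 2133 of 21081 transcripts did. In males 0 passed, where 0 of 21081 did. For Pln in males the difference was 0.81 ± 0.20 (SE) with all libraries, with adjusted p = 1, and 1.04 ± 0.17 without the pair of raised libraries, with adjusted p = 0.444. Leaving out high male 7 alone gave an adjusted p of 0.29 at the same difference. The Pln difference in males did not pass the correction in any of these fits, it was used in choosing the genes, and its signals lie near background.

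The factor between the raised libraries was 9.49 to 18.8 for the 8 genes other than Pln. The gain in background-subtracted Cy5 signal over the control mean, on a linear scale, was larger in high male 7 than in high female 8 for all 8: 9.49-fold for Tnni2, 9.53-fold for Myl1, 13.3-fold for Acta1, 14.8-fold for Myh8 and 18.8-fold for Ckm. The median was 12.6-fold over 29 of 104 examined genes of the skeletal muscle lists whose gain exceeded 5 control SD in both libraries, 7 of them in the 10-gene set. Beyond the set, the factor was wider, from 2.44-fold for desmin (Des) to 42.9-fold for sarcolipin (Sln). Each factor compares a gene's own probe between 2 libraries, and there is 1 library on each side. The factor of Ckm rests on a gain of only 32.5 units in high female 8. Mylpf gained 3.85 control SD there, short of the 5 SD asked of the 29 genes.

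**Figure D2:**
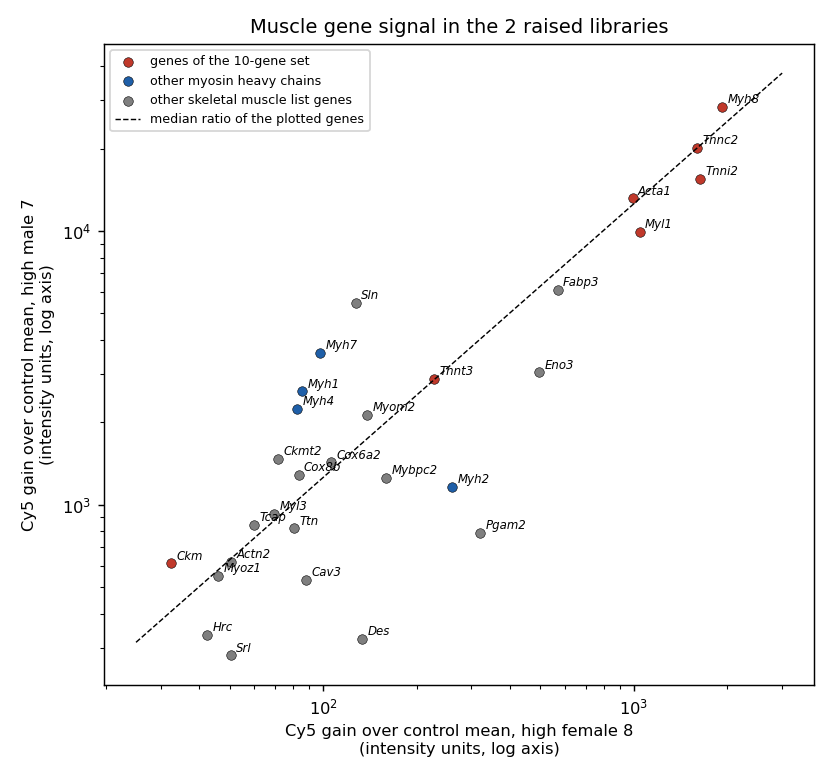
Gain in background-subtracted Cy5 signal over the control mean (intensity units, both axes log) in high female 8 on the x axis and high male 7 on the y axis, for the genes of the skeletal muscle lists with a gain over 5 control SD in both; the dashed line is the median factor of 12.6. Genes of the 10-gene set (red) lie near the line, and Sln, Myh7, Myh1 and Myh4 lie above it.

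The Cy3 channel, which carries the same reference RNA on every array, was also brighter at these spots in high male 7. At the Myh8 spot, Cy3 was 1987 in high male 7 and 187 in high female 8, against 79.8 ± 5.38 (SD, n = 10) in controls and 79 to 87 in the other exposed pups. At the Tnnc2 spot it was 1264 against 245 ± 18.0, and at the Acta1 spot 924 against 403 ± 43.7. The Cy3 gain amounted to 1.66% (Myl1) to 6.72% (Myh8) of the Cy5 gain in the 8 genes other than Pln. Its source was not tested.

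The size of a difference therefore depended on the channel read. For Myh8 in high male 7, Cy5 alone gave a log2 gain of 8.19 over controls where the ratio gave 4.00. For Tnnc2 the values were 6.93 and 4.80, for Acta1 6.55 and 5.54, and for Myl1 6.70 and 6.31. The order of the genes differed between the measures: Myl1 was first by ratio and Myh8 by Cy5 alone. In high female 8 the gap was smaller, with 4.31 against 3.40 for Myh8 and 2.90 against 2.88 for Acta1.

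**Figure D3:**
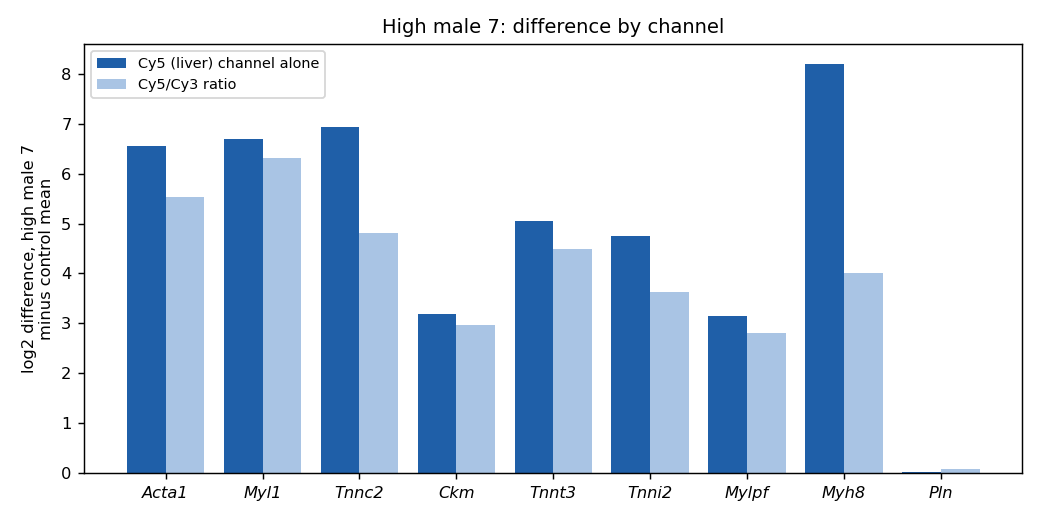
Log2 difference of high male 7 from the mean of the 10 controls for each measured gene, from the Cy5 (liver) channel alone (dark bars) and from the Cy5/Cy3 ratio (light bars); 1 library, so no error bars. The Cy5 bar is the taller for the 8 genes other than Pln, with the widest gap for Myh8 (8.19 against 4.00).

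Neonatal and adult isoforms were both high in high male 7. The adult fast chains differed from the control mean by 3.97 (Myh1), 3.29 (Myh2) and 3.95 (Myh4, at least 30.2-fold in Cy5 alone, since no control was well above background), and the slow chain Myh7 by 4.17, next to 4.00 for neonatal Myh8. Their Cy5 signals were 2696, 1249, 2327 and 3723 in high male 7, where Myh8 read 28496. Myh7 also read 619 in high female 13, whereas 5 exposed pups (high males 5, 9 and 14 and high females 4 and 6) lay between 118 and 166. In normalized log2 Cy5 alone, high male 7 read 14.54 for Myh8 against a control mean of 6.35. The other chains read 11.18 (Myh1), 10.07 (Myh2), 10.98 (Myh4) and 11.64 (Myh7), against control means of 6.03 to 6.61. By this measure Myh8 was raised most. Its ratio is lower because Cy3 was also brighter at its spot.

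By ratio, high female 8 differed in this balance. Its log2 difference was 3.40 for Myh8, but 0.91 for Myh1, 1.84 for Myh2, 1.04 for Myh4 (at least 1.94-fold in Cy5 alone) and 0.78 for Myh7. In linear gain, high male 7 exceeded high female 8 by 14.8-fold for Myh8, 30.4-fold for Myh1, 27.2-fold for Myh4 and 36.8-fold for Myh7, but 4.48-fold for Myh2. In normalized log2 Cy5 alone, high female 8 read 10.66 for Myh8, 7.12 for Myh1, 8.09 for Myh2, 7.02 for Myh4 and 7.38 for Myh7. By that measure Myh8 was the chain furthest above its control mean in high female 8, as it was in high male 7. The contrast in balance between these libraries therefore depends on the channel read. By ratio, high female 13 differed by 2.46 for Myh7 and by -0.17 to 0.10 for the 4 other chains. With 1 library of each kind these are descriptions of libraries, and probes of different genes do not report levels on a common scale.

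Other genes named for the embryonic or neonatal stage differed far less than Myh8 in high male 7. The list holds 5 measured genes and 1 lay more than 1 log2 unit up, Myh8 itself. Cardiac actin (Actc1, the actin of fetal skeletal muscle) differed by 0.48, the fetal acetylcholine receptor subunit Chrng by 0.17, cardiac troponin T (Tnnt2) by 0.14 and the atrial and embryonic light chain Myl4 by 0.11. Actc1 and Chrng were above their highest controls (0.33 and 0.11), and Tnnt2 and Myl4 were not. Actc1, Tnnt2 and Myl4 were well above background in all 10 controls, which limits the rise they can show, and Chrng in 1. Tnnt2 instead differed by 1.93 in the library of high female 8 and by 1.80 in that of high female 13, where Actc1 differed by 1.44. Among 5 adult isoform genes, 4 lay more than 1 log2 unit up in high male 7, and the adult receptor subunit Chrne, at 0.04, did not.

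**Figure D4:**
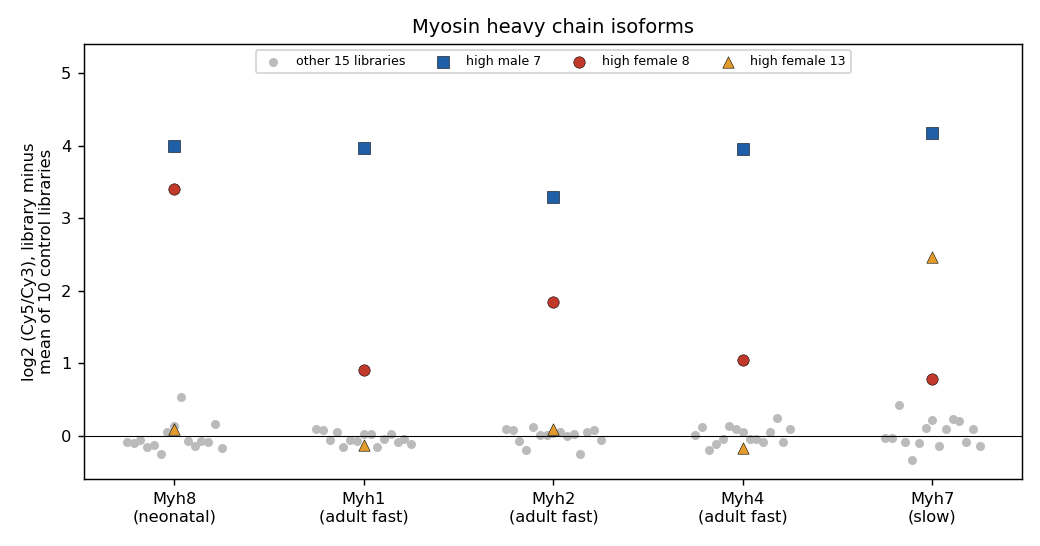
Log2 Cy5/Cy3 minus the mean of the 10 controls (y axis) for 5 myosin heavy chains (x axis), with high male 7 as blue squares, high female 8 as red circles, high female 13 as orange triangles and the other 15 libraries in grey. High male 7 lies at 3.29 to 4.17 for all 5 chains, high female 8 is highest for Myh8 (3.40), and high female 13 stands apart for Myh7 (2.46). These are ratios, and in Cy5 alone the Myh8 gain of high male 7 was 8.19.

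The rest of the contractile apparatus was represented too, as given by gene lists chosen with earlier results of these data known. The fast sarcomere list also holds genes not confined to fast fibres, such as Ttn. Of its 21 measured genes beyond the set, 16 lay more than 1 log2 unit above the control mean in high male 7. The list median was 1.90 against -0.07 to 0.10 in the controls and -0.0038 over all genes and unnamed probes. The largest were Myh1, Myh4, the M-band gene Myom2 (3.80), titin (Ttn, 3.68, at least 11.9-fold in Cy5 alone) and Myh2. Of 11 genes of the slow and cardiac sarcomere, 4 did, with a median of 0.74: Myh7, the ventricular and slow light chains Myl3 (3.45) and Myl2 (2.38), and Myoz2 (2.14, at least 4.7-fold in Cy5 alone).

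Energy supply genes were next. In the list of 18, 10 lay more than 1 log2 unit up in high male 7, with a median of 1.21 against -0.07 to 0.07 in controls. The fatty acid carrier Fabp3 differed by 4.32, the mitochondrial creatine kinase Ckmt2 by 4.02 and the cytochrome oxidase subunit Cox8b by 3.72. In Cy5 alone, Ckmt2 was at least 19.4-fold and Cox8b at least 17.6-fold higher. Cox6a2 and the phosphoglycerate mutase Pgam2 differed by 2.74 and 2.42. Of 20 excitation and calcium genes, 5 did so, with a median of 0.68: Sln, a small inhibitor of the calcium pump (4.88, at least 66.5-fold in Cy5 alone), Hrc (2.04), the calcium release channel Ryr1 (1.73), Srl (1.65) and the calcium store protein Casq2 (1.62). Of regulators and satellite cell genes, 2 of 21 were up by more than 1. Their median was 0.26, a small difference but above the -0.05 to 0.07 of the controls. The 2 genes were Cav3 (2.78, at least 7.91-fold in Cy5 alone) and Des (1.45). The myogenic factor Myog differed by 0.49, where the highest control was at 0.09.

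High female 8 read 4 of these 5 lists at smaller size. Its medians were 0.43 for the fast sarcomere (2 of 21 above 1), 0.13 for the slow sarcomere (0 of 11), 0.22 for energy supply (2 of 18) and 0.11 for calcium handling (1 of 20). Each of these medians lay above the range of the 10 controls. The median of the regulators and satellite cell list was 0, inside the control range of -0.05 to 0.07, with 0 of 21 above 1.

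Heart markers separated from the skeletal genes. Of 11 genes in the heart list, 2 lay more than 1 log2 unit up in high male 7, Sln and Myl2, and skeletal lists hold both. The list median was 0.09 against -0.03 to 0.05 in controls. The natriuretic peptide genes Nppa and Nppb differed by 0.04 and 0.26, cardiac troponin I (Tnni3) by -0.19, the atrial light chain Myl7 by -0.29 and Mybpc3 by 0.09. Myh6, the alpha heavy chain of heart, differed by 0.96 and was at least 1.89-fold higher than in controls in Cy5 alone. The lists for skin, lung, nerve and glia, and cartilage, bone and tendon had 0 genes more than 1 log2 unit up in high male 7, and the fat list had 1 of 8 (Cidea, 1.07).

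Markers of other tissues moved with the muscle genes in high female 8 and not in high male 7. The exocrine pancreas list (16 genes) had a median of -0.15 in high male 7, with 0 genes more than 1 log2 unit up. Its medians were 2.56 for high female 8 and 1.82 for high female 13, with 12 and 11 such genes, and controls spanned -0.22 to 0.59. The smooth muscle list (8 genes) had medians of -0.06, 1.16 and 2.03 in the same order, against -0.23 to 0.39 in controls. The mesothelium list (6 genes) had medians of 0.06, 1.09 and -0.08, against -0.46 to 0.37. The defining smooth muscle genes Acta2 and Myh11 differed by 0.03 and -0.20 in high male 7 and by 1.09 and 1.94 in high female 8. In high male 7 the hepatocyte list (15 genes) had a median of -0.08, inside the control range of -0.66 to 0.77, and the red cell list (9 genes) one of -0.09, inside -0.52 to 0.63. The part these tissues have in the muscle values of high female 8 was not tested.

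**Figure D5:**
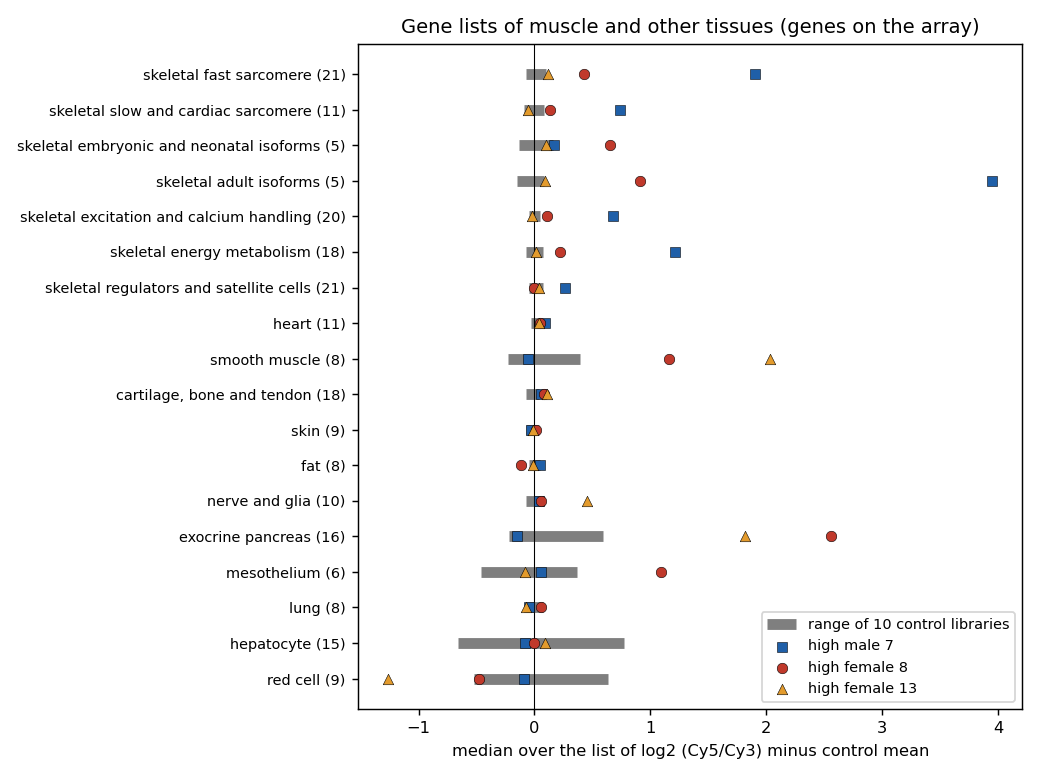
Median over each gene list (rows, with the number of measured genes) of the log2 Cy5/Cy3 minus the control mean, on the x axis, for high male 7 (blue squares), high female 8 (red circles) and high female 13 (orange triangles); grey bars span the 10 controls. The widest margins of high male 7 over the grey bars are in skeletal muscle lists, while high female 8 and high female 13 also leave them for exocrine pancreas and smooth muscle.

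The genes most like the set across all 18 libraries were other muscle genes, and this rested on the raised libraries. Likeness was the Pearson correlation with the mean difference of the measured genes of the set, over 18 libraries, of which 1 lies far from the rest and sets most of its size. The 12 highest among 16481 named genes were Myh2 (r = 0.987), Fabp3 (0.976), Cox8b (0.973), Sln (0.969), Myl3 (0.969), Myh4 (0.966), Myh1 (0.962), Ttn (0.961), Myom2 (0.953), Tcap (0.952), Ckmt2 (0.951) and Mybpc1 (0.951), and 30 genes were above 0.9. Over the 17 libraries without high male 7, the 6 highest were Mboat1 (0.951), Cldn8 (0.949), Myh2 (0.949), Sln (0.946), Cox8b (0.946) and Ift81 (0.942), where high female 8 takes the place of the distant library. Over the 16 libraries without both, the 6 highest were Pkp1 (0.930), Shisa4 (0.883), Npcd (0.860), Sec14l1 (0.847), 4930432K21Rik (0.840) and Cbr2 (0.811), of which the muscle lists hold 0. Within the set, r between Acta1 and Tnni2 was 0.969 over 18 libraries and 0.08 over 16, and that between Myl1 and Mylpf 0.788 and -0.63. All 18 points share 1 reference RNA.

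High male 7 departed from the controls for few genes outside muscle. Of 16535 named genes, 35 lay more than 2 log2 units above the control mean, of which 8 were in the 10-gene set and 24 in the skeletal muscle lists. The highest genes in no list were Apobec2 (3.20), Eif2s3y (2.53), Ddx3y (2.39), Itgb1bp2 (1.97), Nmrk2 (1.88) and Trim54 (1.75). Apobec2 is known as a striated muscle protein, and Trim54 is a ubiquitin ligase of striated muscle. Eif2s3y and Ddx3y are Y-linked, and the controls are of both sexes. High male 7 was inside the control range for both genes, -1.83 to 2.76 for Eif2s3y and -1.84 to 2.51 for Ddx3y. The lowest genes in no list, next to Xist, were the basophil protease Mcpt8 (-1.25), Cd7 (-1.03), the hepatokine Fgf21 (-1.02), Slc15a2 (-0.92) and Prss34 (-0.85). For Fgf21 the controls reached down to -0.84, so high male 7 was close to their range, and for Slc15a2 it was inside their range of -1.19 to 1.13.

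Values within a slide were close to those against all controls. Against the 2 controls on its own slide, high male 7 differed by a median of 3.99 over the 8 genes other than Pln, and high female 8 by 2.41 against its own slide's controls. The slide of high male 7 also held control female 4, the highest control for Acta1, Tnnc2, Tnnt3 and Myh8, and control male 3, the highest for Myl1. Both were the highest pair among the 10 controls for 2 of the 8 genes (Myl1 and Tnnc2). In control female 4 the 8 genes had a median of 0.29 above the control mean, and in control male 3 of 0.15. Whether these values are tied to the neighbouring array was not tested.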

How the data were processed

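Each of 18 arrays (45018 spots, 41174 probes) was scanned with Agilent Feature Extraction 10.1.1.1, per the submitters' processing notes; the deposited scanner files hold Cy5 and Cy3 intensity per spot, per the file headers. The authors also deposited a log2 value table; its columns correlated with the loess ratios here at r = 0.989 to 0.993, with medians of -0.0492 to -0.0365, and its exact centring stays unknown.

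From median intensities, the background was corrected by normexp (offset 50), ratios were loess-normalized within arrays, flagged spots were set aside, and probes of 1 identity were averaged (limma 3.58.1 in R 4.3.3). Log2 values of Cy5 alone, used for the bounds and the channel gains, were taken after a further quantile normalization of average intensities between arrays (Aquantile). Groups were fitted by lmFit and eBayes over all 18 arrays, 1 mean per group; 21081 transcripts passed the filter and entered the Benjamini-Hochberg adjustment. RefSeq tables named 56.8% of probes. The code was tested on simulated data.

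The members and lists were chosen with earlier results of these data known. Genes named are the 10 members, up to 5 per list with the largest difference in high male 7, the 12 and 6 most correlated genes, and the 6 highest and 6 lowest in no list; markers of other tissues, the other isoforms and heart genes are named from their lists, and Cidea and Myog after their values were seen. Alternatives covered background, normalization, filter, probe choice, value table, slide, replicate number, array weights and left-out libraries. Same-numbered pups (r from -0.18 to 0.13) were not treated as pairs.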

Additional observations from a re-analysis of the deposited data

Results flagged for a closer look

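In groups of 4 or 5 pups, a library was set apart where its gap to the nearest other exceeded Dixon's limit; 12 of 36 groups examined did so. Chance does so in about 1 in 20 groups, but these genes were chosen by the same values and share the same raised libraries, so the count is a description and is not read against chance. High male 7 stood apart from the other high males for 7 genes, with log2 Cy5/Cy3 of 3.64 (Acta1), 4.07 (Myl1), 3.79 (Tnnc2), 2.92 (Ckm), 3.54 (Tnnt3), 3.32 (Tnni2) and 3.61 (Myh8). High female 8 stood apart from the other high females for 3 genes, with 2.12 (Tnnc2), 1.44 (Tnni2) and 3.01 (Myh8). Among controls, control female 4 stood apart for Myh8 at 0.16, and the library labelled control male 6 for Pln at 0.39. Mylpf was not set apart in any group.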

How the results depend on the processing

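The count of muscle genes past the threshold was 0 in all 3 group comparisons under each alternative run, including slide as a block, the 2 groups alone, array weights and each library left out in turn (0 to 0). The fit without high male 7 and high female 8 was run for both exposure comparisons and also gave 0. Over all transcripts, 2133 of 21081 passed in females in that fit and 0 in males. With replicate number as a block the counts were 0, and no paired reading is drawn from it. The median difference of high male 7 over the 8 tested genes was 4.24; leaving out each control in turn gave 4.22 to 4.29. It was 3.99 after scale normalization, 4 without the filter (Ckm then enters), 4.03 with the mean over a gene's probes and 4.01 in the authors' value table. Over all transcripts, 307 passed in females, and 0 to 2406 under the alternatives.

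Several differences that had not passed the threshold turned sign. Without high male 7 and high female 8, those in males became -0.04 (Tnnc2), -0.02 (Tnnt3), -0.11 (Mylpf) and -0.01 (Myh8), and those in females -0.02 (Acta1), -0.27 (Tnnc2), -0.08 (Tnnt3), -0.35 (Tnni2) and -0.09 (Myh8). With each library left out in turn, differences in males ran from -0.04 to 1.60 (Tnnc2), -0.02 to 1.53 (Tnnt3), -0.11 to 0.97 (Mylpf) and -0.01 to 1.35 (Myh8), each lowest without high male 7. In females they ran from -0.02 to 1.05 (Acta1), -0.27 to 0.90 (Tnnc2), -0.08 to 0.49 (Tnnt3), -0.35 to 0.37 (Tnni2), -0.40 to 0.07 (Mylpf) and -0.09 to 1.13 (Myh8), each lowest without high female 8. Between the control sexes they ran from -0.13 to 0.06 (Myl1), -0.09 to 0.03 (Tnni2), -0.09 to 0.08 (Mylpf), -0.07 to 0.10 (Myh8) and -0.16 to 0.06 (Pln). There, the replicate block turned Mylpf from 0.02 to -0.80 and Pln from -0.08 to 0.22, array weights turned Mylpf to -0.03, and median centring turned Myl1 from -0.02 to 0.06 and Tnni2 from -0.04 to 0.06; the cause was not tested. For Pln in high male 7, 0.08 became -0.03 without background correction and -0.02 in the value table. Signals near background limit what Ckm, Pln and, in controls, Myl1, Tnnt3 and Myh8 can show.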
